A study of Mus musculus with 40 samples.

Results

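The 34 genes described here are glycolysis genes and genes of the hypoxia response. They were taken from the count table by gene symbol, and all 34 were found among its 54087 entries. All 34 also passed the filter on low counts, which kept 14760 entries. Tumor RNA was sequenced in 40 BALB/c mice that carried CT26 tumors, a mouse colon carcinoma line, under the skin. Each mouse received 1000000 cells, antibodies on days 6, 9 and 12, and was sampled on day 13, with 5 mice in each of 8 groups. The groups received an isotype control antibody (motavizumab, mIgG2a), anti-PD-1 (an Fc-silent mIgG2a with the RMP1-14 variable regions), anti-TGF-β (clone 1D11, which neutralizes all 3 isoforms), anti-GARP:TGF-β1 WT (clone 58A2, mIgG2a), or anti-GARP:TGF-β1 FcD (the same clone with an Fc that does not bind Fcγ receptors). In the remaining 3 groups, called the anti-TGF-β, WT and FcD combinations below, each of the last 3 antibodies was given together with anti-PD-1. Every group carried the same tumor line, and each tumor was a single library of whole tissue, so that fewer cells of a type and less RNA per cell cannot be told apart.

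Glycolysis splits glucose into pyruvate, and lactate dehydrogenase turns pyruvate into lactate. When oxygen is scarce, the HIF transcription factors are stabilized and raise the transcription of most glycolytic enzymes, of the glucose transporter, and of genes for vessel growth, pH control and mitochondrial turnover. Tumors and activated immune cells both use glycolysis, so whole-tissue levels of these transcripts sum over malignant cells, stroma and leukocytes. TGF-β is a cytokine that restrains immunity and drives stromal programs, and GARP presents its latent form on the surface of regulatory T cells.

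Total counts per mouse ran from 11931730 to 20680548 (median 14030511). Values below are counts in each 1000000 of the library, abbreviated CPM, scaled by the TMM method, and p-values are 2-sided from edgeR's quasi-likelihood test with Benjamini-Hochberg adjustment over the 14760 genes tested. A gene was called when its adjusted p was under 0.05. Of 7 epithelial markers of the labelled tumor origin, Krt18, Krt19, Cdh1 and Cdx2 were above 0 in every library, while Krt8 was listed at 0 in 3 libraries, Epcam in 7 and Vil1 in 16. Their summed level ran from 9.17 to 503 CPM. Libraries 41 to 60 and libraries 61 to 80, numbered so in the sample titles, differed in sex-linked transcripts, with Ddx3y at 6.86 to 33.4 CPM in the former and at 0 in the latter, and Xist at up to 0.428 CPM in the former and from 62.7 to 791 CPM in the latter. Every group held 2 or 3 mice of each.

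Per kilobase of exon sequence, Gapdh was the most abundant of the 34 genes, at 781 ± 99.5 CPM per kb (SD, n = 40 mice). Ldha followed at 709 ± 112, Tpi1 at 546 ± 78.1 and Pgk1 at 494 ± 94.6 CPM per kb. Gapdh lay above Ldha in 34 of 40 tumors, Ldha above Tpi1 in 40 and Tpi1 above Pgk1 in 37. The payoff-phase enzymes Pkm, Eno1 and Pgam1 lay at 457, 351 and 176 CPM per kb. At the other end were the phosphofructokinase-2 gene Pfkfb4 at 4.17, the HIF prolyl hydroxylase gene Egln3 at 2.92 and the second aldolase gene Aldoc at 1.63 CPM per kb. Levels spread least across the 40 tumors for Gapdh, 1.70-fold between the highest and the lowest mouse, and most for Egln3, at 7.28-fold, Aldoc, at 6.32-fold, Pfkfb3, at 6.05-fold, and Car9, at 5.69-fold. Eno1 shared near-identical sequence over 1736 bases with Eno1b, which was counted at 419.9 CPM, and Pfkp shared 748 exon bases with Pitrm1 on the other strand, counted at 71.6 CPM; whether the counting used strand was not stated, so both levels are uncertain. Gapdh has many near-identical annotated copies, and its level is uncertain as well.

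The comparisons asked whether blocking PD-1, TGF-β or GARP:TGF-β1 alone, or PD-1 with either of the others, changed these transcripts. No member was called in any of the 10 comparisons of 2 groups. The share of all genes called was 0% in 9 of them and 0.00678% for anti-TGF-β + anti-PD-1 against anti-PD-1, where the 1 called gene was Isg15. DESeq2's Wald test also called 0 members in these 10 comparisons and in the 3 interactions given further on. The share of all genes it called in them is not given, so this 0 is not set against a background. In each comparison of 2 groups, the values of every member overlapped between the groups. The share of all genes whose values overlapped is not given, so this is not read as a result about the members.

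Below an unadjusted p of 0.05, members were compared with all genes. For anti-PD-1, anti-GARP:TGF-β1 WT and anti-GARP:TGF-β1 FcD against the isotype control, 0 of 34 members had such a p, beside 0.955%, 0.969% and 0.474% of all genes. For anti-TGF-β it was 2 members, 5.88% beside 2.32% of all genes. With anti-PD-1 added, it was 3 members for anti-GARP:TGF-β1 WT (8.82% beside 20.7%), 3 for anti-GARP:TGF-β1 FcD (8.82% beside 16.6%) and 6 for anti-TGF-β (17.6% beside 20.1%), each against the isotype control. Against anti-PD-1 alone, it was 5 members for the WT combination (14.7% beside 17.2%), 4 for the FcD combination (11.8% beside 10.7%) and 3 for the anti-TGF-β combination (8.82% beside 17.1%). The members are described by direction and size only.

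These counts rested on single mice. For anti-TGF-β against the isotype control, the count went from 2 to 18 of 34 members (52.9%, beside 4.8% of all genes) without anti-TGF-β replicate 3 (library 59), and to 8 (23.5%) without isotype control replicate 3 (library 63) or 5 (library 78), beside 2.98% and 1.77% of all genes. It was 0 without anti-TGF-β replicate 2 (library 48) or 5 (library 79) and without isotype control replicate 1 (library 46) or 4 (library 74), and 0 and 1 within libraries 41 to 60 and 61 to 80 alone. For the WT combination against anti-PD-1, it was 9 (26.5% beside 25.6%) without anti-PD-1 replicate 2 (library 52), 2 (5.88% beside 10.4%) without anti-PD-1 replicate 3 (library 54), and 1 (2.94%) without anti-PD-1 replicate 1 (library 47) or WT combination replicate 5 (library 77), beside 9.61% and 5.42% of all genes. For the FcD combination against anti-PD-1, it was 1 (2.94%) without library 47, library 54 or FcD combination replicate 4 (library 71), beside 7.63%, 6.3% and 4.74% of all genes, and 2 (5.88% beside 5.4%) without FcD combination replicate 1 (library 44). For the anti-TGF-β combination against anti-PD-1, it ran from 1 without library 52 to 6 without library 54 or anti-TGF-β combination replicate 1 (library 53), beside 15.6%, 15.4% and 28.1% of all genes.

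Against the isotype control, the WT combination had 2 or 3 members with any mouse of either group left out, but without library 77 the share of all genes dropped from 20.7% to 5.85%, beside 5.88% of members. The count for the FcD combination was 1 (2.94%) without library 78 or library 44, beside 12.1% and 9.14% of all genes, and 2 (5.88% beside 8.02%) without library 71. That for the anti-TGF-β combination was 3 (8.82%) without library 46 or library 74, beside 15.7% and 14.3%, and up to 8 (23.5% beside 29.8%) without library 53. In libraries 41 to 60 alone, all 6 comparisons with a combination had 0 or 1 members below 0.05, beside 0.899% to 2.35% of all genes. Within libraries 61 to 80 alone they had 1 to 5 members, beside 14.7% to 36.1% of all genes.

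**Figure D1:**
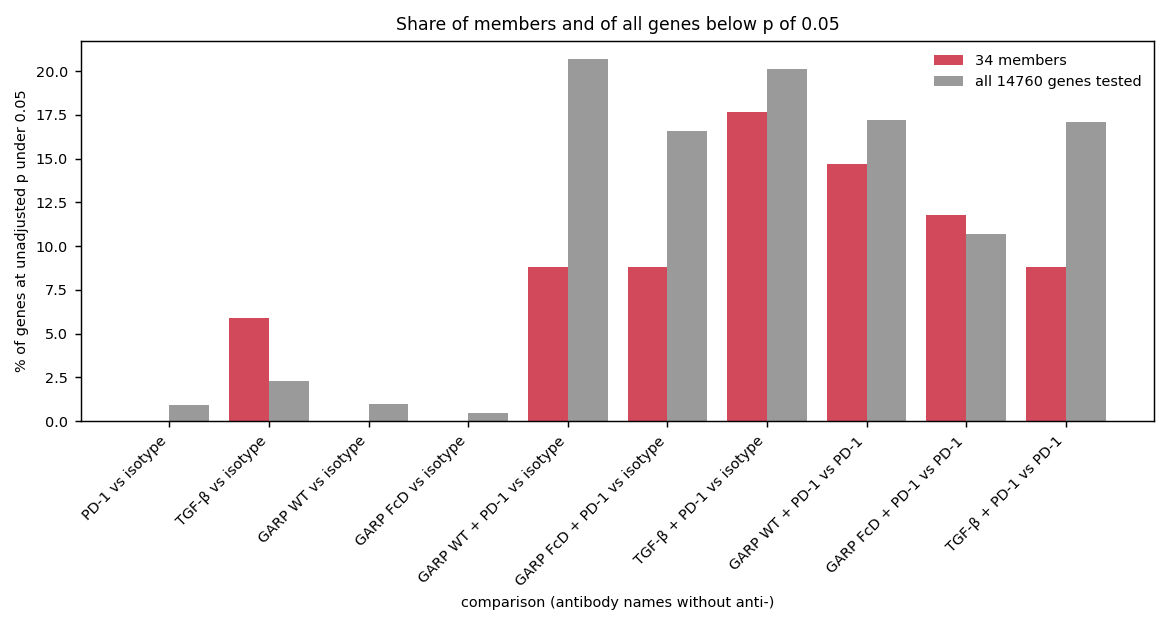
Share of the 34 members (red bars) and of all 14760 genes tested (grey bars), in percent, with an unadjusted p under 0.05 in each comparison of 2 groups. The largest share of members is 17.6%, in anti-TGF-β + anti-PD-1 against the isotype control, beside 20.1% of all genes.

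Medians over the members were small and are given without a test. Against the isotype control, the median log2 fold change of the 34 members was -0.22 with anti-TGF-β (30 of 34 lower) and -0.17 with anti-TGF-β + anti-PD-1 (28 of 34 lower), beside medians of 0.01 and 0.02 over all genes. With the WT combination it was 0.09 (25 of 34 higher), with the FcD combination -0.01 (16 higher), with anti-PD-1 -0.03, with anti-GARP:TGF-β1 WT 0.01 and with anti-GARP:TGF-β1 FcD -0.10 (30 of 34 lower). The median over members of single tumors varied within groups with an SD of 0.22 on the log2 scale. All 15 glycolytic enzymes were lower with anti-TGF-β, with a median of -0.20, and 14 of 15 were lower with its combination, with a median of -0.13. Of the 14 hypoxia response genes, 12 were lower in each of these 2 comparisons, with medians of -0.26 and -0.22. The comparisons with the isotype control share the same 5 control mice. Members also moved together within groups, with a median r of 0.61 over their pairs, so these counts of direction are not independent.

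These medians moved with single mice and with the library numbers. With 1 mouse left out, the median ran from -0.33 to -0.18 for anti-TGF-β and from -0.23 to -0.09 for its combination, the last without its replicate 4 (library 66). For the WT combination it ran from 0.03, without isotype control replicate 5 (library 78), to 0.16, without WT combination replicate 5 (library 77), and for anti-GARP:TGF-β1 FcD from -0.15 to -0.03, the last without its replicate 5 (library 75). The other 3 medians took both signs, from -0.11 without anti-PD-1 replicate 2 (library 52) to 0.04 without isotype control replicate 1 (library 46) for anti-PD-1, from -0.07 without library 78 to 0.05 without library 46 for anti-GARP:TGF-β1 WT, and from -0.06 without isotype control replicate 3 (library 63) to 0.05 without library 46 for the FcD combination. Within libraries 41 to 60 and within libraries 61 to 80, the median was -0.12 and 0.09 with anti-PD-1, -0.12 and 0.13 with anti-GARP:TGF-β1 WT and -0.03 and 0.05 with the FcD combination. In the other 4 comparisons with the isotype control, its sign was the same in both parts.

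**Figure D2:**
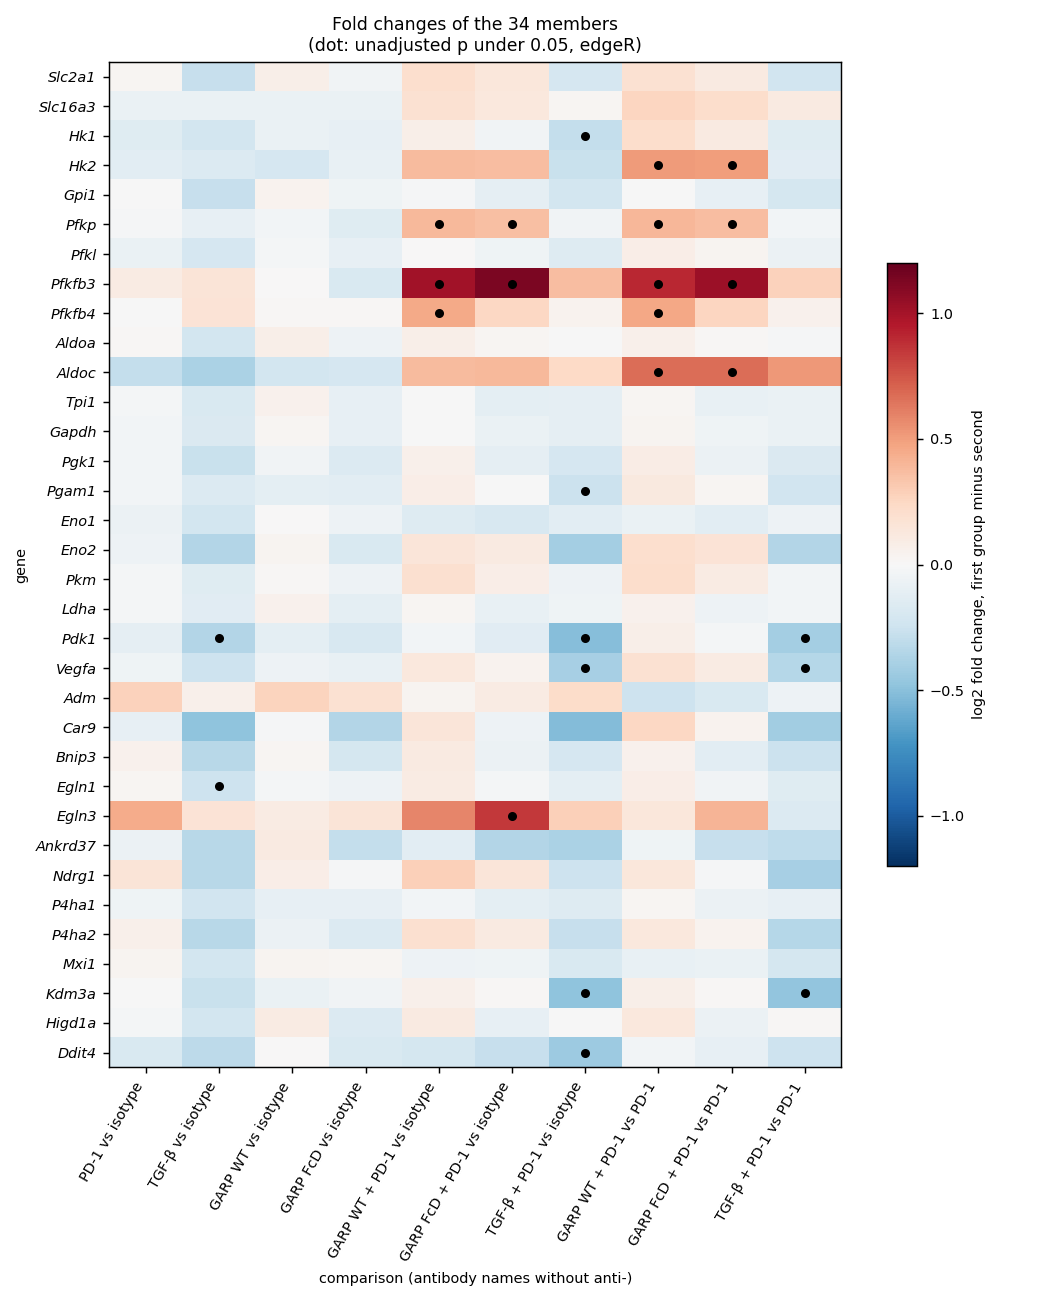
Log2 fold change of each of the 34 members (rows) in the 10 comparisons of 2 groups (columns), from blue (lower in the first group) to red (higher), with a dot where the unadjusted p is under 0.05. The deepest red is Pfkfb3 in the comparison of the FcD combination with the isotype control, at 1.13, and the 2 anti-TGF-β columns against the isotype control are mostly blue.

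Pfkfb3 had the smallest p of the members in the test for any difference among the 8 groups, and was not called there. It encodes a bifunctional enzyme that makes fructose 2,6-bisphosphate, the strongest activator of phosphofructokinase-1. Pfkfb3 was at 30.6, 37.9, 38.3, 45.1 and 48.5 CPM in the 5 isotype control tumors and at 24.3, 28.3, 39.5, 46.96 and 75.5 CPM with anti-PD-1. With single blockade of the TGF-β axis, Pfkfb3 was at 24.1, 28.02, 39.3, 42.4 and 89.6 CPM with anti-TGF-β, at 28.6, 37.8, 38.5, 47.8 and 48.3 CPM with anti-GARP:TGF-β1 WT and at 23.7, 24.5, 38.7, 42.8 and 46.6 CPM with anti-GARP:TGF-β1 FcD. In the combinations, Pfkfb3 was at 36.2, 43.5, 46.2, 47.4 and 86.2 CPM with anti-TGF-β, at 46.1, 66.7, 67.3, 78.5 and 143 CPM with anti-GARP:TGF-β1 WT and at 44.8, 73.3, 75.9, 115 and 129 CPM with anti-GARP:TGF-β1 FcD. In both anti-GARP combinations, 4 of 5 tumors lay above the highest isotype control tumor, and 1 lay within the control range. The means were 80.4 ± 37.2 CPM (WT combination) and 87.6 ± 33.99 CPM (FcD combination) against 40.1 ± 6.95 CPM in isotype controls (SD, n = 5 each).

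The Pfkfb3 log2 fold change against the isotype control was 1.13 ± 0.33 (SE; adjusted p = 0.225 in edgeR) for the FcD combination and 1.00 ± 0.33 (adjusted p = 0.159 in edgeR) for the WT combination. Against anti-PD-1 it was 1.03 ± 0.33 and 0.91 ± 0.33, with adjusted p of 0.458 and 0.231 in edgeR, and the latter was 0.39 within libraries 41 to 60, 1.15 within libraries 61 to 80 and 0.59 without library 77. For anti-TGF-β + anti-PD-1, Pfkfb3 had a mean of 51.9 ± 19.7 CPM. In the test across the 8 groups, Pfkfb3 had an adjusted p of 0.116 in edgeR, and 0 of 34 members were called beside 0.0271% of all genes. DESeq2's likelihood ratio test called 2 members there, Pfkfb3 (adjusted p = 0.0037) and Kdm3a (adjusted p = 0.0377), 5.88% of members beside 4.01% of the 31288 genes it tested. Below an unadjusted p of 0.05 in edgeR's test were 5 members, Pfkfb3, Kdm3a, Pfkp, Hk2 and Pdk1, beside 24.7% of all genes.

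Within libraries 61 to 80 alone, the Pfkfb3 difference from the isotype control was 1.42 for the FcD combination (adjusted p = 0.0364 in edgeR) and 1.43 for the WT combination (adjusted p = 0.0162 in edgeR). Within libraries 41 to 60 alone it was 0.81 and 0.27, and neither was called. In libraries 61 to 80 alone, 14.2% of all genes were called for the WT combination, beside 2 members (5.88%), Pfkfb3 and Pfkp, and 1.75% for the FcD combination, beside 1 member (2.94%). Without replicate 5 of the WT combination (library 77), which had the highest Pfkfb3 level of all 40 tumors at 143 CPM, the difference was 0.69.

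**Figure D3:**
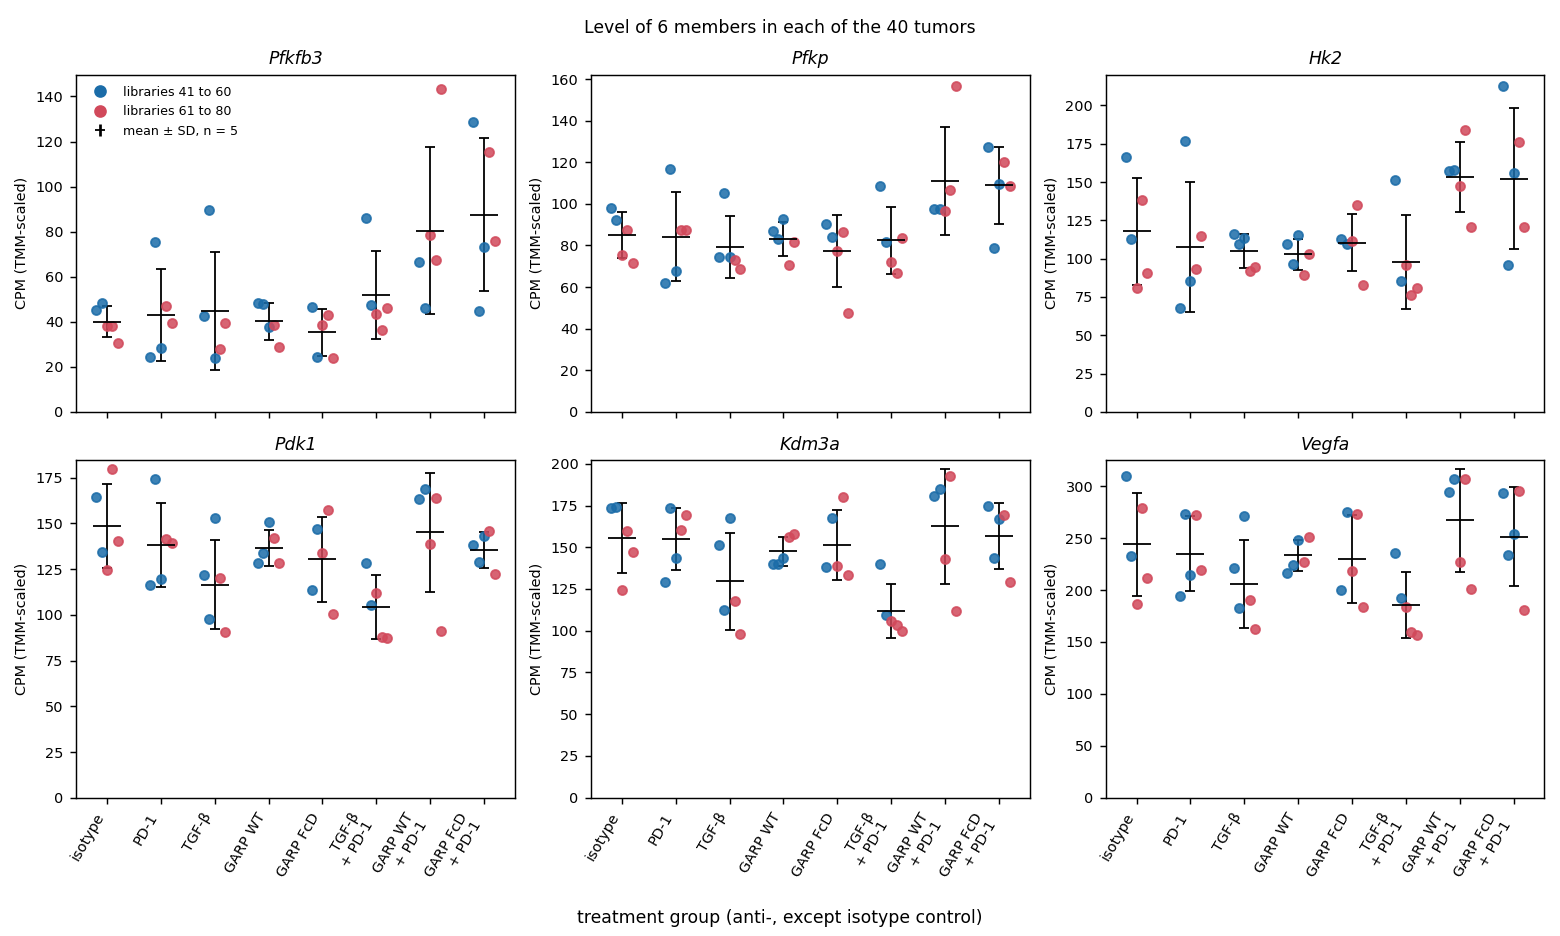
CPM of 6 members (Pfkfb3, Pfkp, Hk2, Pdk1, Kdm3a and Vegfa) in each tumor by treatment group, with blue points for libraries 41 to 60, red points for libraries 61 to 80, and black lines for the mean and SD of 5 mice. Pfkfb3 reaches 143 CPM in a WT combination tumor and 129 CPM in an FcD combination tumor, against at most 48.5 CPM in isotype controls.

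Pfkfb3 moved with leukocyte markers from tumor to tumor. The summed CPM of 8 leukocyte markers (Ptprc, Cd3e, Cd8a, Cd4, Itgam, Adgre1, Cd68 and Csf1r, none at 0 in any library) ran from 578 to 719 in isotype controls, from 545 to 3222 in the WT combination and from 559 to 1317 in the FcD combination. With group means removed, Pfkfb3 correlated with the leukocyte sum at r = 0.89 and Spearman's rho = 0.88 across 40 mice (adjusted permutation p = 0.00189 and 0.0034, over 340 tests of 34 members against 10 marker lists), and at r = 0.89 without the 2 mice farthest from the median sum. Within libraries 41 to 60 the r was 0.97, and within libraries 61 to 80 it was 0.79. The part of leukocytes in the Pfkfb3 difference between groups was not tested.

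Another 3 members moved with the leukocyte sum, namely Pfkfb4, which encodes another isoform of the same enzyme, at r = 0.89 (rho = 0.79), Pfkp, the platelet-type phosphofructokinase-1, at r = 0.70 (rho = 0.65), and Aldoc, at r = 0.54 (rho = 0.41). The adjusted permutation p-values for Pfkfb4 and Pfkp were 0.00189 for r and at most 0.00567 for rho, while for Aldoc that for rho was 0.103. Tpi1, Eno1, Ldha and Ddit4 ran the other way, with r between -0.57 and -0.45, and their rho did not pass the adjustment. The summed neutrophil markers (S100a8, S100a9, Cxcr2, Csf3r and Ly6g, with Ly6g listed at 0 in 24 libraries) moved with Egln3 at r = 0.80 (rho = 0.71), with Pfkfb3 at r = 0.69 (rho = 0.55), with Pfkp at r = 0.61 (rho = 0.57) and with Adm at r = 0.53 (rho = 0.53). Adjusted permutation p-values for r with neutrophil markers were 0.00189 for Egln3, Pfkfb3 and Pfkp and 0.00927 for Adm.

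The summed endothelial markers (Pecam1, Cdh5, Kdr, Emcn, Tie1 and Tek, none at 0 in any library) moved with Pfkfb4 at r = 0.75 (rho = 0.54), with Pfkfb3 at r = 0.68 (rho = 0.57) and with Egln3 at r = 0.64 (rho = 0.67), each with an adjusted permutation p of 0.00189 for r. Another 8 members ran the other way with an adjusted permutation p under 0.05 for r, namely Ldha, Tpi1, Pdk1, Eno1, Ankrd37, Pgk1, Ddit4 and Kdm3a, at r from -0.61 to -0.46, and of their rho those of Ldha and Tpi1 passed the adjustment. The endothelial sum was 89.4 to 124 CPM in isotype controls, 74.1 to 498 CPM in the WT combination, with library 77 at the top, and 95.1 to 233 CPM in the FcD combination. It was 91.8 to 270 CPM with anti-TGF-β and 102 to 168 CPM in the anti-TGF-β combination. The part of this sum in the differences of Pfkfb3, Pfkfb4, Egln3, Pdk1, Kdm3a and Ddit4 between groups was not tested.

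Of the other lists, fibroblast markers ran against Tpi1 and P4ha1 (both r = -0.46), and proliferation markers against Egln3 (r = -0.46) and Adm (r = -0.45), with adjusted permutation p for r from 0.0371 to 0.047, and of their rho that of Adm passed the adjustment. Adipocyte markers moved with Egln3 at r = 0.55 (rho = 0.52, adjusted permutation p = 0.005 for r), and keratinocyte markers with Aldoc at r = 0.59 (rho = 0.55, adjusted permutation p = 0.00262 for r). Skeletal muscle and erythroid markers had no member with an adjusted permutation p under 0.05 for r. The adipocyte sum was 3.67 to 61.3 CPM in isotype controls and 29.3 to 621 CPM in the FcD combination, with Lep listed at 0 in 10 libraries, and its part in the Egln3 difference was not tested. Correlations with markers were computed after the first results had been seen, and marker sums of different cell types vary together.

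**Figure D4:**
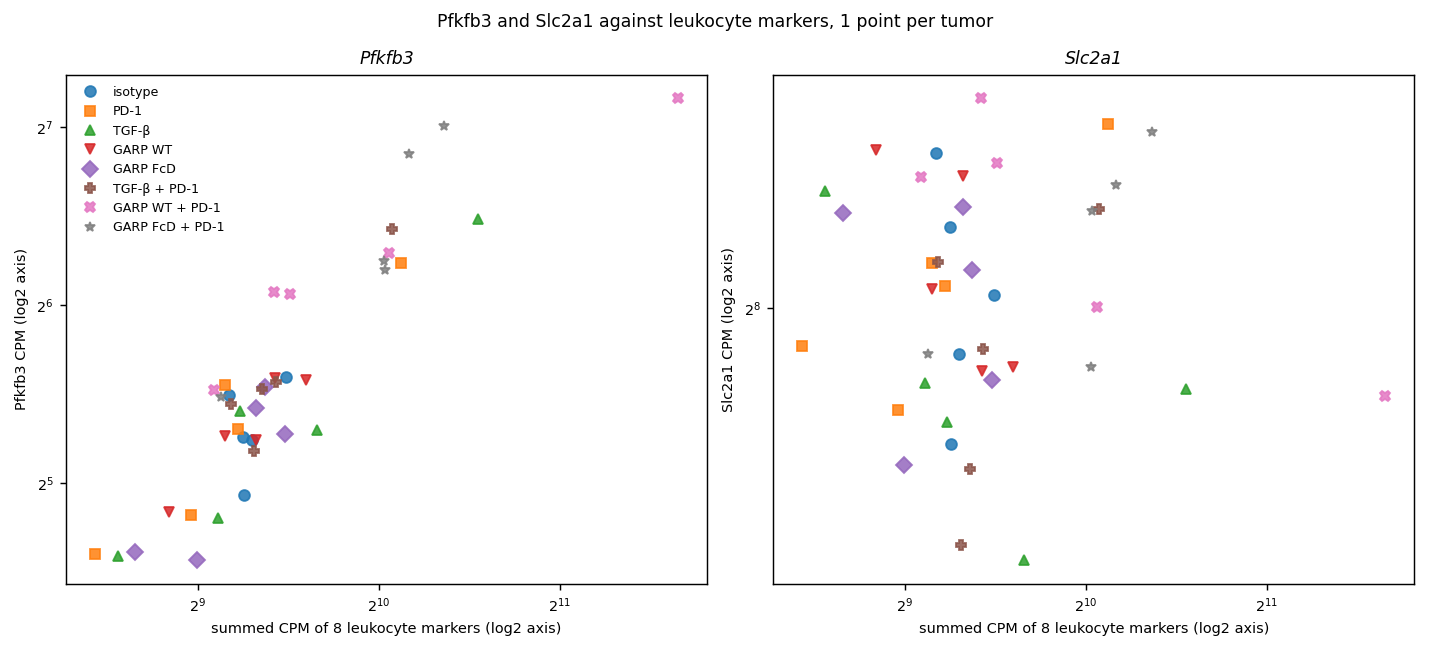
CPM of Pfkfb3 (left) and of the glucose transporter gene Slc2a1 (right) against the summed CPM of 8 leukocyte markers, both on log2 axes, with a symbol for each of the 40 tumors by treatment group. Pfkfb3 climbs with the leukocyte sum up to the tumor at 3222 CPM (r = 0.89 within groups), whereas Slc2a1 does not (r = -0.14).

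Among the transporters, Slc2a1 imports glucose and Slc16a3 exports lactate. Slc2a1 was at 192, 233, 263, 304 and 355 CPM in isotype controls, at 207, 236, 268, 281 and 377 CPM with anti-PD-1 and at 151, 201, 216, 219 and 327 CPM with anti-TGF-β. Slc2a1 with anti-GARP:TGF-β1 was at 224, 226, 267, 338 and 357 CPM (WT) and 184, 219.9, 277, 313 and 316 CPM (FcD). Slc2a1 in the combinations was at 156, 182, 235, 282 and 315 CPM (anti-TGF-β), 213, 257, 337, 347 and 398 CPM (WT) and 226, 232, 314, 331 and 371 CPM (FcD). The groups overlapped throughout, and the lowest value of the 40 belonged to an anti-TGF-β mouse, replicate 5 (library 79). Slc16a3 was at 94.4, 96.5, 105, 117 and 126 CPM in isotype controls, at 74.5, 80.6, 108, 116 and 131 CPM with anti-PD-1 and at 87.1, 91.9, 107, 111 and 113 CPM with anti-TGF-β. Slc16a3 with anti-GARP:TGF-β1 was at 85.7, 90.2, 101, 115 and 117 CPM (WT) and 79.4, 100.2, 108, 110.2 and 112 CPM (FcD), and in the combinations at 85.7, 102, 103, 124 and 133 CPM (anti-TGF-β), 111, 121, 124, 126 and 128 CPM (WT) and 102, 115, 115, 120.0 and 136 CPM (FcD). Its lowest tumor was an anti-PD-1 one, and the 5 tumors of the WT combination lay close together.

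Of the glycolytic enzymes, Hk2 is a hexokinase, which traps glucose in the cell, and Pfkp a phosphofructokinase-1, which commits it to glycolysis. Hk2 was at 80.9, 90.5, 113, 138 and 166 CPM in isotype controls, at 67.7, 85.7, 93.4, 115 and 177 CPM with anti-PD-1 and at 92.00, 94.7, 109, 114 and 116 CPM with anti-TGF-β. Hk2 with anti-GARP:TGF-β1 was at 89.3, 96.2, 103, 109 and 116 CPM (WT) and 82.6, 109.8, 111, 113 and 135 CPM (FcD). Hk2 in the combinations was at 76.6, 81.1, 85.4, 95.6 and 151 CPM (anti-TGF-β), 121, 147, 157, 158 and 184 CPM (WT) and 95.5, 121, 156, 176 and 213 CPM (FcD). The anti-PD-1 group held 1 high tumor, replicate 2 (library 52), at 177 CPM, which overlapped the combinations. Against anti-PD-1, the Hk2 log2 fold change was 0.51 ± 0.21 for the WT combination (adjusted p = 0.249 in edgeR) and 0.50 ± 0.22 for the FcD combination (adjusted p = 0.458 in edgeR), the latter 0.75 without that anti-PD-1 mouse. Without that anti-PD-1 mouse, the WT comparison gave 0.76 and an adjusted p of 0.0418 in edgeR, and Pfkfb3 was called with it (1.21, adjusted p = 0.0442 in edgeR), so that 2 members were called, 5.88% beside 3.6% of all genes in that fit. Library 52 also had the highest leukocyte marker sum of its group, 1114 CPM against 346 to 598 CPM in the others, whose part in its Hk2 level was not tested.

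Pfkp was at 71.6, 75.7, 87.7, 92.2 and 98.1 CPM in isotype controls, at 61.96, 67.8, 87.3, 87.7 and 117 CPM with anti-PD-1 and at 68.9, 73.1, 74.6, 74.7 and 105 CPM with anti-TGF-β. Pfkp with anti-GARP:TGF-β1 was at 70.4, 81.7, 83.02, 86.96 and 92.7 CPM (WT) and 47.3, 77.6, 83.95, 86.6 and 90.3 CPM (FcD). Pfkp in the combinations was at 66.9, 72.1, 81.5, 83.5 and 109 CPM (anti-TGF-β), 96.6, 97.5, 97.7, 107 and 157 CPM (WT) and 78.96, 109, 109.6, 120.3 and 127 CPM (FcD). Of the WT combination, 3 of 5 tumors lay within the isotype control range and 1, library 77, stood far above. The Pfkp log2 fold change against the isotype control was 0.38 ± 0.17 (WT combination, adjusted p = 0.202 in edgeR) and 0.36 ± 0.17 (FcD combination, adjusted p = 0.29 in edgeR). Without library 77 the former was 0.23. The Pfkp differences within libraries 41 to 60 were 0.04 (WT combination) and 0.14 (FcD combination), and within libraries 61 to 80 they were 0.61, which was called (adjusted p = 0.0475 in edgeR), and 0.54 (adjusted p = 0.151 in edgeR). Against anti-PD-1, Pfkp had a log2 fold change of 0.40 ± 0.17 for the WT combination (adjusted p = 0.251 in edgeR), and 0.24 without library 77 and within libraries 41 to 60. Pfkfb4, with a log2 fold change of 0.45 ± 0.20 for the WT combination against the isotype control (adjusted p = 0.207 in edgeR), was at 0.03 without the same tumor, and at 0.20 and 0.57 within libraries 41 to 60 and 61 to 80.

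Aldoc was low throughout, at 3.65, 4.41, 5.47, 5.90 and 6.84 CPM in isotype controls, at 2.51, 3.21, 4.98, 5.04 and 5.75 CPM with anti-PD-1 and at 2.13, 3.80, 3.90, 4.98 and 5.30 CPM with anti-TGF-β. Aldoc with anti-GARP:TGF-β1 was at 3.52, 3.85, 5.02, 5.09 and 5.09 CPM (WT) and 2.26, 3.42, 4.89, 5.75 and 6.44 CPM (FcD). Aldoc in the combinations was at 4.69, 4.77, 5.84, 7.68 and 7.86 CPM (anti-TGF-β), 4.47, 5.41, 5.44, 5.47 and 13.4 CPM (WT) and 4.52, 5.55, 6.25, 7.04 and 10.9 CPM (FcD). The combinations were higher than anti-PD-1 on average but overlapped it, and library 77 was again the highest. Aldoc against anti-PD-1 had a log2 fold change of 0.67 ± 0.30 for the FcD combination (adjusted p = 0.458 in edgeR), and of 0.44 without its highest tumor, replicate 4 (library 71), at 10.9 CPM. Aldoc correlated within groups with the epithelial marker sum at r = 0.62 and rho = 0.59 (adjusted permutation p = 0.00262 and 0.00944), with r = -0.25 within libraries 41 to 60 and 0.64 within libraries 61 to 80. The epithelial sum was 10.8 to 59.0 CPM with anti-PD-1, 10.8 to 503 CPM in the FcD combination, with library 71 at the top, and 237 CPM in library 77, and its part in the Aldoc differences was not tested. Ldha, which converts pyruvate to lactate, was at 2073, 2114, 2512, 2668 and 2721 CPM in isotype controls, at 2018, 2148, 2451, 2516 and 2764 CPM with anti-PD-1 and at 1716, 1756, 1973, 2604 and 2940 CPM with anti-TGF-β. Ldha with anti-GARP:TGF-β1 was at 2061, 2136, 2408, 2881 and 3002 CPM (WT) and 1774, 2236, 2237, 2412 and 2481 CPM (FcD). Ldha in the combinations was at 1878, 2216, 2303, 2364 and 2902 CPM (anti-TGF-β), 1677, 2197, 2508, 2808 and 3109 CPM (WT) and 1996, 2228, 2239, 2301 and 2605 CPM (FcD). Every group held tumors both above and below 2302 CPM, the median of the 40. Hk1 had a log2 fold change of -0.29 ± 0.11 for anti-TGF-β + anti-PD-1 against the isotype control (adjusted p = 0.172 in edgeR).

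Pdk1 encodes a pyruvate dehydrogenase kinase, which keeps pyruvate out of the mitochondrial acetyl-CoA pathway. Pdk1 was at 124, 134, 140.3, 165 and 179.9 CPM in isotype controls, at 117, 119, 139, 142 and 174 CPM with anti-PD-1 and at 90.4, 97.8, 120.3, 122 and 153 CPM with anti-TGF-β. Pdk1 with anti-GARP:TGF-β1 was at 128, 129, 134, 142 and 151 CPM (WT) and 100.5, 114, 134, 147 and 157 CPM (FcD). Pdk1 in the combinations was at 87.4, 87.95, 105, 112 and 129 CPM (anti-TGF-β), 91.01, 139, 163, 164 and 169 CPM (WT) and 122, 129, 138, 143 and 146 CPM (FcD). In the anti-TGF-β combination, 4 of 5 tumors lay below the lowest isotype control tumor. The log2 fold change against the isotype control was -0.51 ± 0.15 for anti-TGF-β + anti-PD-1 (adjusted p = 0.127 in edgeR) and -0.35 ± 0.15 for anti-TGF-β alone (adjusted p = 1.00 in edgeR), and against anti-PD-1 it was -0.41 ± 0.15 (adjusted p = 0.198 in edgeR). Within libraries 41 to 60 and within libraries 61 to 80, the first of these was -0.35 and -0.63, the second -0.27 and -0.49 and the last -0.23 and -0.55.

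Kdm3a, a histone demethylase gene of the hypoxia response, ran alongside Pdk1. Kdm3a was at 124, 147, 159.7, 173 and 174 CPM in isotype controls, at 129, 143, 161, 169 and 174 CPM with anti-PD-1 and at 98.2, 113, 118, 152 and 168 CPM with anti-TGF-β. Kdm3a with anti-GARP:TGF-β1 was at 139.9, 140.1, 144, 156 and 158 CPM (WT) and 133, 138, 139, 168 and 179.9 CPM (FcD). Kdm3a in the combinations was at 99.6, 104, 106, 109.5 and 139.7 CPM (anti-TGF-β), 112, 143, 180.4, 185 and 193 CPM (WT) and 129, 144, 167, 169 and 175 CPM (FcD). In the anti-TGF-β combination, 4 of 5 tumors lay below all isotype and anti-PD-1 tumors, and replicate 1 (library 53) lay within their range. The log2 fold change was -0.48 ± 0.14 against the isotype control (adjusted p = 0.126 in edgeR) and -0.47 ± 0.14 against anti-PD-1 (adjusted p = 0.154 in edgeR). The former was -0.48 in each part of the libraries alone, and the latter -0.26 within libraries 41 to 60 and -0.68 within libraries 61 to 80, with adjusted p of 1.00 and 0.117 in edgeR. Without that mouse, 5 members were called against the isotype control, Kdm3a, Pdk1, Vegfa, Hk1 and Pgam1, all lower, and 2, Kdm3a and Pdk1, against anti-PD-1. In these fits 2006 and 1734 of all genes were called (13.4% and 11.6%, beside 14.7% and 5.88% of members), against 0 and 1 with all mice. Library 53 had the highest leukocyte marker sum of its group, 1077 CPM against 582 to 691 CPM in the others, whose part in these differences was not tested. Without isotype control replicate 3 (library 63), 2 members, Kdm3a and Pdk1, were called against the isotype control, 5.88% beside 4.88% of all genes.

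Vegfa, which drives vessel growth, was at 187, 212, 233, 279 and 309.6 CPM in isotype controls, at 195, 215, 219, 273 and 273 CPM with anti-PD-1 and at 162, 183, 191, 221 and 271 CPM with anti-TGF-β. Vegfa with anti-GARP:TGF-β1 was at 217, 224, 227, 248 and 251 CPM (WT) and 183, 200.1, 218, 273 and 275 CPM (FcD). Vegfa in the combinations was at 156, 159, 184, 192 and 235 CPM (anti-TGF-β), 201, 227, 294, 306 and 307 CPM (WT) and 180.5, 234, 254, 293 and 296 CPM (FcD). Its values in the anti-TGF-β combination overlapped both control groups, with a log2 fold change of -0.34 ± 0.16 against anti-PD-1 (adjusted p = 0.267 in edgeR), which was -0.09 within libraries 41 to 60 and -0.56 within libraries 61 to 80. Egln1, a HIF prolyl hydroxylase that marks HIF for degradation, had a log2 fold change of -0.25 ± 0.12 for anti-TGF-β against the isotype control (adjusted p = 1.00 in edgeR).

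Car9, which encodes a membrane carbonic anhydrase, was at 22.3, 26.1, 26.7, 43.5 and 48.3 CPM in isotype controls, at 18.7, 22.01, 26.7, 30.4 and 57.8 CPM with anti-PD-1 and at 16.7, 18.6, 24.95, 26.6 and 32.7 CPM with anti-TGF-β. Car9 with anti-GARP:TGF-β1 was at 30.4, 30.7, 31.1, 32.3 and 40.7 CPM (WT) and 10.2, 17.4, 27.1, 29.7 and 46.6 CPM (FcD). Car9 in the combinations was at 11.7, 14.7, 20.5, 30.9 and 38.7 CPM (anti-TGF-β), 26.6, 36.2, 38.9, 41.2 and 41.6 CPM (WT) and 22.4, 24.8, 36.5, 36.8 and 39.6 CPM (FcD). Its groups overlapped, with the lowest single values in an anti-GARP:TGF-β1 FcD and an anti-TGF-β + anti-PD-1 tumor. The Car9 log2 fold change against the isotype control was -0.48 ± 0.32 for anti-TGF-β and -0.52 ± 0.32 for its combination (adjusted p = 1.00 and 0.349 in edgeR).

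Bnip3, a mitophagy receptor gene, was at 177, 192, 224, 253 and 261 CPM in isotype controls, at 179.7, 201, 225, 253 and 290.1 CPM with anti-PD-1 and at 99.8, 153, 155, 186 and 286 CPM with anti-TGF-β. Bnip3 with anti-GARP:TGF-β1 was at 170.0, 186, 234, 257 and 280.0 CPM (WT) and 122, 168, 190.3, 221 and 256 CPM (FcD). Bnip3 in the combinations was at 123, 157, 219, 225 and 239 CPM (anti-TGF-β), 165, 209, 263, 264 and 291 CPM (WT) and 168, 199, 226, 228 and 234 CPM (FcD). Its lowest and one of its highest values both belonged to the anti-TGF-β group. Ndrg1, a stress-response gene, was at 409, 454, 472, 583 and 688 CPM in isotype controls, at 445, 502, 525, 652 and 781 CPM with anti-PD-1 and at 256, 372, 373, 382 and 681 CPM with anti-TGF-β. Ndrg1 with anti-GARP:TGF-β1 was at 429.6, 439, 537, 646 and 696 CPM (WT) and 349, 443, 497, 645 and 649 CPM (FcD). Ndrg1 in the combinations was at 296, 342, 450.0, 528 and 583 CPM (anti-TGF-β), 468, 558, 673, 721 and 764 CPM (WT) and 424, 485, 618, 641 and 707 CPM (FcD). With anti-TGF-β, 4 of 5 tumors lay below all isotype control tumors and 1 near the top of their range.

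Ankrd37, a small ankyrin-repeat gene, was at 29.4, 41.1, 43.8, 44.01 and 44.9 CPM in isotype controls, at 28.95, 31.2, 34.6, 47.03 and 51.7 CPM with anti-PD-1 and at 17.3, 23.2, 30.3, 34.01 and 56.7 CPM with anti-TGF-β. Ankrd37 with anti-GARP:TGF-β1 was at 32.5, 33.9, 41.4, 48.6 and 61.97 CPM (WT) and 27.3, 29.2, 32.4, 35.8 and 42.1 CPM (FcD). Ankrd37 in the combinations was at 22.98, 24.3, 29.4, 36.98 and 42.9 CPM (anti-TGF-β), 19.1, 30.2, 40.5, 41.6 and 55.1 CPM (WT) and 19.98, 30.01, 32.5, 37.7 and 39.5 CPM (FcD). The isotype controls held 1 low tumor at 29.4 CPM, and the values of every other group overlapped theirs. Adm encodes the vasodilator adrenomedullin. Adm was at 3.60, 6.43, 6.60, 7.71 and 8.07 CPM in isotype controls, at 6.19, 6.55, 6.78, 7.06 and 12.8 CPM with anti-PD-1 and at 4.60, 4.65, 6.20, 8.58 and 9.95 CPM with anti-TGF-β. Adm with anti-GARP:TGF-β1 was at 5.18, 5.91, 6.36, 8.95 and 12.6 CPM (WT) and 4.18, 6.52, 6.90, 9.30 and 9.71 CPM (FcD). Adm in the combinations was at 4.53, 6.60, 7.14, 7.58 and 11.9 CPM (anti-TGF-β), 5.33, 6.13, 6.68, 6.96 and 8.09 CPM (WT) and 4.57, 5.58, 6.33, 7.48 and 10.7 CPM (FcD). No group stood apart for Adm.

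Egln3, another HIF prolyl hydroxylase gene, was at 3.74, 5.83, 5.97, 6.04 and 8.84 CPM in isotype controls, at 4.98, 5.35, 7.52, 11.2 and 12.6 CPM with anti-PD-1 and at 3.03, 3.74, 7.01, 8.66 and 11.9 CPM with anti-TGF-β. Egln3 with anti-GARP:TGF-β1 was at 5.52, 6.18, 6.24, 7.18 and 7.56 CPM (WT) and 4.81, 5.43, 6.16, 6.84 and 10.6 CPM (FcD). Egln3 in the combinations was at 4.04, 4.81, 6.06, 9.90 and 12.3 CPM (anti-TGF-β), 6.65, 7.09, 7.95, 8.66 and 15.4 CPM (WT) and 6.26, 7.30, 8.18, 11.2 and 22.1 CPM (FcD). In the FcD combination, 1 tumor, replicate 1 (library 44), held 22.1 CPM, and its neutrophil marker sum of 166 CPM was also the highest of its group. The Egln3 log2 fold change against the isotype control was 0.85 ± 0.36 (adjusted p = 0.258 in edgeR), and 0.43 without that tumor. Neutrophil sums ran from 21.4 to 61.6 CPM in isotype controls and from 35.7 to 166 CPM in the FcD combination, and their part in the Egln3 difference was not tested.

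The other 18 members spread from 1.70-fold to 3.62-fold between the highest and the lowest of the 40 tumors. Among them are the hexokinase gene Hk1, the isomerase genes Gpi1 and Tpi1, the phosphofructokinase-1 gene Pfkl, the aldolase gene Aldoa, and Gapdh, Pgk1, Pgam1, Eno1, Eno2 and Pkm, which carry glycolysis from triose phosphate to pyruvate. The rest are Pfkfb4, Egln1, the collagen prolyl hydroxylase genes P4ha1 and P4ha2, the MYC antagonist gene Mxi1, the mitochondrial gene Higd1a, and Ddit4. Pfkfb4 had the widest span, from 14.3 to 51.5 CPM, with library 77 at the top, and Gapdh the narrowest, from 2452 to 4166 CPM. Pgam1 and Ddit4 had log2 fold changes of -0.26 ± 0.12 and -0.43 ± 0.18 for anti-TGF-β + anti-PD-1 against the isotype control (adjusted p = 0.234 and 0.192 in edgeR).

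Whether the effect of blocking the TGF-β axis differed with anti-PD-1 was tested as an interaction. No member was called for any of the 3 antibodies, beside 0% of all genes. Below an unadjusted p of 0.05 were 2 members for anti-GARP:TGF-β1 WT (8.75% of all genes), 3 for anti-GARP:TGF-β1 FcD (4.49%) and 1 for anti-TGF-β (2.3%). The largest of them was Pfkfb3 for FcD, at 1.21 ± 0.47 on the log2 scale (adjusted p = 0.787 in edgeR). Aldoc was the gene below 0.05 in all 3 interactions, at 0.89, 0.88 and 0.90, with adjusted p of at least 0.483 in edgeR, and the 3 interactions share the isotype control and anti-PD-1 mice. Its level was 13.4 CPM in library 77 against 4.47 to 5.47 CPM in the rest of the WT combination, and 10.9 CPM in library 71 of the FcD combination. With 1 mouse left out, the counts below 0.05 ran from 0 to 7 members (WT), 1 to 5 (FcD) and 0 to 1 (anti-TGF-β). The shares of all genes in those fits are not given.

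The libraries numbered 61 to 80 were compared with those numbered 41 to 60 within groups. No member was called, beside 1.68% of all genes, and 6 members had an unadjusted p under 0.05, beside 12.5% of all genes. With 1 mouse left out, this count ran from 2 (5.88%), without library 79 or library 80, beside 11.4% and 12% of all genes, to 12 (35.3% beside 12.7%), without WT combination replicate 4 (library 69). Aldoc was higher in libraries 61 to 80, with a log2 fold change of 0.46 ± 0.13 (adjusted p = 0.0673 in edgeR). Ddit4, an inhibitor of mTORC1, had a log2 fold change of -0.27 ± 0.08 (adjusted p = 0.0897), Eno2 of -0.26 ± 0.11 (adjusted p = 0.316) and Egln3 of -0.39 ± 0.18 (adjusted p = 0.329), all in edgeR. DESeq2's Wald test called 1 member, Aldoc (adjusted p = 0.0282), beside 1.71% of all genes. The epithelial marker sum did not overlap between these parts, at 9.17 to 22.2 CPM in libraries 41 to 60 and 24.8 to 503 CPM in libraries 61 to 80, and its part in the Aldoc difference was not tested.

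Of the other genes of the pathway, 46 of 49 listed genes passed the filter, and none was called in any of the 10 comparisons of 2 groups. Against the isotype control, the FcD combination had 11 of the 46 below an unadjusted p of 0.05, all higher, 23.9% of them beside 16.6% of all genes. By smallest p they were led by the lipid droplet gene Plin2 (1.08 ± 0.37), the hexokinase gene Hk3 (1.23 ± 0.43) and the HIF-2α gene Epas1 (1.34 ± 0.46). The leukocyte marker sum, up to 719 CPM in isotype controls, reached 1317 CPM in the FcD combination and 3222 CPM in the WT combination, there in library 77, and its part in the differences of these genes was not tested. The WT combination had 7, all higher (15.2% beside 20.7%), led by Plin2 (1.42 ± 0.37), the lactate dehydrogenase B gene Ldhb (1.66 ± 0.54) and Hk3 (1.25 ± 0.43). Without library 77, in which Plin2 reached 888 CPM and Ldhb 13.8 CPM, these were 0.80 for Plin2, 0.72 for Ldhb and 0.89 for Hk3, and 3 of the 46 (6.52%) were below 0.05, beside 5.85% of all genes. Within libraries 41 to 60 alone they were 0.42, -0.20 and 0.50, and within libraries 61 to 80 alone, which hold library 77, they were 1.95, 2.61 and 1.67 and among 7 of the 46 called, beside 14.2% of all genes. In that part alone, 1 of the 46, the heme oxygenase gene Hmox1, was called for the FcD combination, beside 1.75% of all genes. The FcD count of 11 was 1 (2.17% beside 2.22% of all genes) within libraries 41 to 60 alone and 15 (32.6% beside 23.1%) within libraries 61 to 80 alone. With both parts, it was 19 (41.3% beside 29.9%) without FcD combination replicate 2 (library 50), and 8 (17.4%) without its replicate 1 (library 44) or 4 (library 71), beside 9.14% and 8.02% of all genes. The anti-TGF-β combination had 9, 7 lower and 2 higher (19.6% beside 20.1%), led by the demethylase gene Kdm4b (-0.31 ± 0.10), Angptl4 (0.49 ± 0.16) and the collagen lysyl hydroxylase gene Plod1 (-0.27 ± 0.10). All their adjusted p-values in edgeR with all mice were at least 0.133, and without library 53 Kdm4b and Angptl4 were among 6 of the 46 called for the anti-TGF-β combination, beside 13.4% of all genes. Without library 63, Kdm4b was the 1 called there, beside 4.88%. The count of 9 ran from 5 (10.9%) without isotype control replicate 4 (library 74) or anti-TGF-β combination replicate 5 (library 68), beside 14.3% and 12.2% of all genes, to 14 (30.4% beside 29.8%) without library 53, and was 1 (2.17% beside 2.26%) within libraries 41 to 60 alone.

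Of the single antibodies, anti-PD-1 had 1 of the 46 below 0.05, Angptl4 (2.17% beside 0.955% of all genes), and anti-TGF-β had 3 (6.52% beside 2.32%), with Plod1 at -0.29 ± 0.10. Anti-GARP:TGF-β1 WT and FcD had 0, beside 0.969% and 0.474%. The anti-TGF-β count was 12 (26.1% beside 4.8%) without anti-TGF-β replicate 3 (library 59), 6 (13% beside 2.98%) without library 63, 5 (10.9%) without library 78 or anti-TGF-β replicate 4 (library 72), beside 1.77% and 2.97%, and 1 (2.17% beside 0.853%) without anti-TGF-β replicate 2 (library 48). It was 1 (2.17%) in each part of the libraries alone, beside 1.28% and 2.05% of all genes. The anti-PD-1 count ran from 0 without library 47, beside 0.803%, to 4 (8.7% beside 1.75%) without anti-PD-1 replicate 5 (library 76).

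Against anti-PD-1, the anti-TGF-β combination had 8 of the 46 below an unadjusted p of 0.05, all lower (17.4% beside 17.1% of all genes), led by Kdm4b (-0.31 ± 0.10), the mitophagy receptor gene Bnip3l (-0.32 ± 0.12) and the lysyl hydroxylase gene Plod2 (-0.50 ± 0.19), with adjusted p of at least 0.167 in edgeR. Without library 53, these 3 were among 5 of the 46 called, beside 11.6% of all genes, and the count was 12 (26.1% beside 28.1%). It was 5 (10.9% beside 9.39%) without library 68, and 0 and 12 (26.1%) within libraries 41 to 60 and 61 to 80 alone, beside 2.28% and 21.2%. The WT and FcD combinations each had 4 of the 46, all higher (8.7% beside 17.2% and 10.7%), and without library 52, Hk3 and the glucose transporter gene Slc2a3 were called for the WT combination, beside 3.6% of all genes. The FcD count was 12 (26.1% beside 25.2%) without library 50 and 2 (4.35% beside 4.74%) without library 71. It was 0 and 11 (23.9%) within libraries 41 to 60 and 61 to 80 alone, beside 2.35% and 14.7%, and the WT count was 1 and 7 (15.2%), beside 2.31% and 23.7%.

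Between the library parts, 2 of the 46 were called (4.35% beside 1.68% of all genes), both higher in libraries 61 to 80. They were Stc2, which encodes a secreted stanniocalcin (0.74 ± 0.16, adjusted p = 0.00835 in edgeR), and Cited2, which encodes a competitor of HIF for its coactivators (0.23 ± 0.05, adjusted p = 0.0171 in edgeR). Both were called in each of the 40 fits with 1 mouse left out, with adjusted p of at most 0.0151 and 0.0356 in edgeR, and the part of the epithelial marker sum, which did not overlap between these libraries, was not tested. Below an unadjusted p of 0.05 were 11 of the 46, 3 higher and 8 lower (23.9% beside 12.5% of all genes).

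Within groups, the members moved together from tumor to tumor. With group means removed, the median correlation of all 561 pairs of members was r = 0.61. Of the 33 other members, 25 correlated with Car9 at r of at least 0.5, beside 1.86% of all genes tested, with a median r of 0.64 against 0.01 over all genes. By permutation, 30 of the 33 had an adjusted p under 0.05 for Pearson's r and 28 for Spearman's rho. The highest were Pkm (r = 0.83, rho = 0.81), Pgam1 (r = 0.82, rho = 0.87), Egln1 (r = 0.81, rho = 0.82), Ndrg1 (r = 0.80, rho = 0.80) and Slc2a1 (r = 0.79, rho = 0.81), each with an adjusted permutation p of 1.83e-05 for r, whose unadjusted p of 1e-05 is the smallest that 100000 permutations give. Without the 2 mice farthest from the Car9 median, these 5 had r between 0.77 and 0.79.

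The members whose correlation with Car9 missed the threshold were Aldoc (r = 0.19, rho = 0.15), Adm (r = 0.09, rho = 0.10) and Pfkfb4 (r = -0.16, rho = -0.14), with adjusted permutation p of 0.241, 0.573 and 0.319 for r. Pfkfb3 and Egln3 followed it weakly, at r = 0.33 and 0.32 (rho = 0.29 and 0.32), with adjusted permutation p of 0.0442 and 0.0492 for r and 0.0801 and 0.0505 for rho. Within libraries 41 to 60, 25 members reached r of 0.5 with Car9, and within libraries 61 to 80, 29 did. Car9 itself correlated with the log2 total count of the library at r = 0.05 and rho = 0.03 (permutation p = 0.779 and 0.832).

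**Figure D5:**
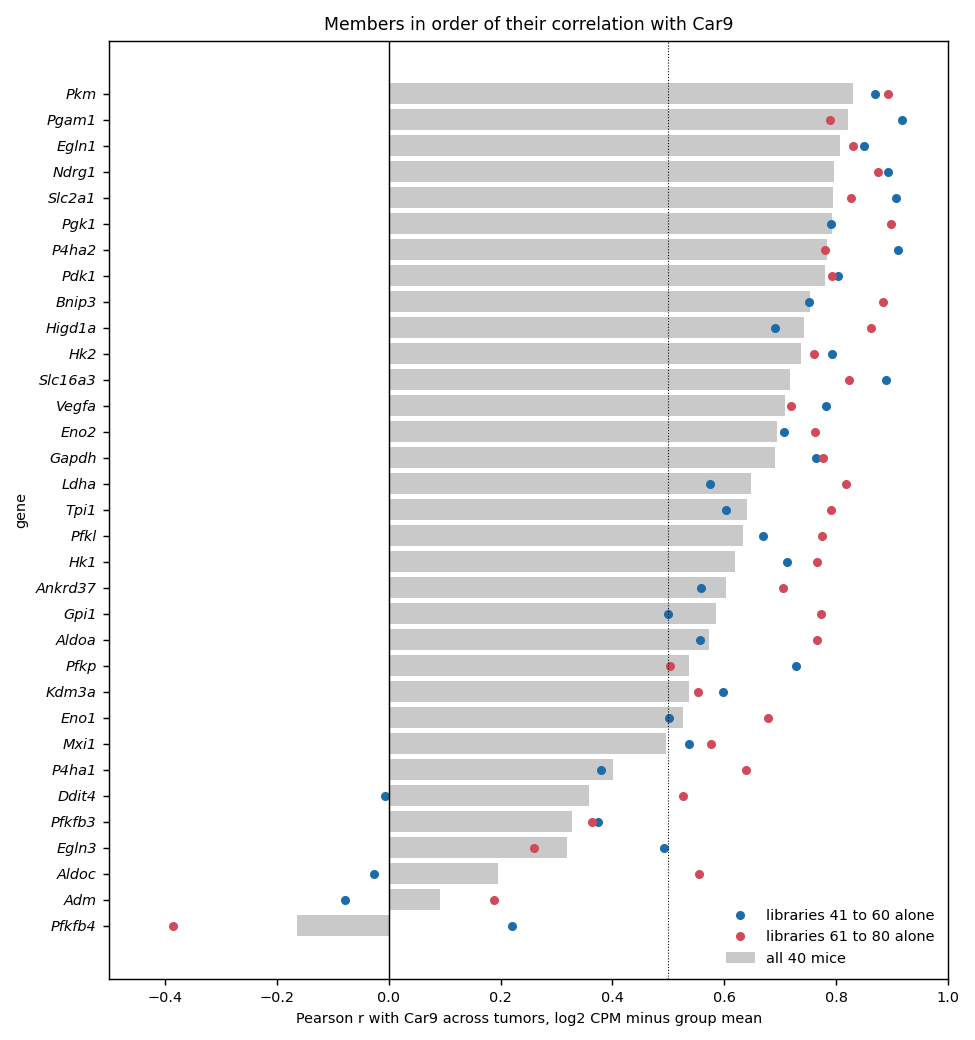
Pearson r of the 33 other members with Car9 across the 40 tumors, on log2 CPM minus the group mean (grey bars), with the values within libraries 41 to 60 (blue points) and within libraries 61 to 80 (red points), and a dotted line at 0.5. The bars run from Pkm at 0.83 to Pfkfb4 at -0.16.

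The tumor that stood out over the most members was anti-TGF-β replicate 5 (library 79), which had the lowest of the 40 values for 12 of the 34 members. Its median over members was 0.50 lower than the median of all mice on the log2 scale, and its group also held replicate 3 (library 59), 0.19 higher. Anti-GARP:TGF-β1 WT replicate 5 (library 73) had the highest value for 8 members. Library 77 had the highest values of Pfkfb3, Pfkfb4, Pfkp and Aldoc and a median over members 0.20 below that of all mice.

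HIF factors bind promoters at short elements with the core letters ACGTG or GCGTG. RefSeq promoters (GRCm38.p6, from 250 bases before to 50 after the start site) were found for 33 of the 34 members, in 48 windows. Of the 33, 30 had at least 1 match to ACGTG or GCGTG on either strand in at least 1 window, 90.9%, beside 46.7% of all genes. By window, 77.1% of the members' windows held a match, beside 43.8% of all 32851. The ACGTG form was held by 23 members, 69.7%, beside 21.8% of all genes. A match is a description of letters, and the members were listed in part as genes of the hypoxia response. The 250 bases before the start site are shown for Car9 and for Pgam1, which followed it closely, and for Pfkfb3, Pfkfb4 and Adm, which followed it weakly or not, with the matches in capitals (CACGT and CACGC where the match is on the other strand).
Car9, chr4:43506776-43507025, plus strand: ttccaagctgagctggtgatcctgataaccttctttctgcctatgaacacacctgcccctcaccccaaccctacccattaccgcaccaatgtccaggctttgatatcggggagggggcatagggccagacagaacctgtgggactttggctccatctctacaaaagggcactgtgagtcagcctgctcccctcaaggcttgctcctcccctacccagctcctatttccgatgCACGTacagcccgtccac
Pgam1, chr19:41911621-41911870, plus strand: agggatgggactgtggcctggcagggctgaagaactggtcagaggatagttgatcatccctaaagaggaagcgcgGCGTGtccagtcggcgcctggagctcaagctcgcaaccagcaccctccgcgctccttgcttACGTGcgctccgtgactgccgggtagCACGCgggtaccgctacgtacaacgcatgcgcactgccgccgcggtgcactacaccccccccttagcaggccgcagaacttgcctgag
Pfkfb3, first of 2 promoters, chr2:11553930-11554179, minus strand: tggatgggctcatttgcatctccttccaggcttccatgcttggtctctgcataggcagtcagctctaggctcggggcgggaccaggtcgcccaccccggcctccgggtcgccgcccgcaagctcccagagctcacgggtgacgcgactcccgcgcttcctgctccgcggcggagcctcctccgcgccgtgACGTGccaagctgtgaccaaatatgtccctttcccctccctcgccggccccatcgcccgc
Pfkfb3, second of 2 promoters, chr2:11502091-11502340, minus strand: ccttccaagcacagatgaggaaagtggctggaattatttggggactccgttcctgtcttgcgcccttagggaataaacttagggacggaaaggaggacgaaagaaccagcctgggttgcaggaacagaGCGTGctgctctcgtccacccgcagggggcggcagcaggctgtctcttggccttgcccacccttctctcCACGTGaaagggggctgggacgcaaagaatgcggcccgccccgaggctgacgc
Pfkfb4, chr9:108991652-108991901, plus strand: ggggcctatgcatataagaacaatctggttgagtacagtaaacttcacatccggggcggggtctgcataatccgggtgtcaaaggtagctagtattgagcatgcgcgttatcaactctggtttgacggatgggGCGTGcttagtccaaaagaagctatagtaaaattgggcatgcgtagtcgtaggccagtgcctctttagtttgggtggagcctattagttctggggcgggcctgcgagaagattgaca
Adm, chr7:110627407-110627656, plus strand: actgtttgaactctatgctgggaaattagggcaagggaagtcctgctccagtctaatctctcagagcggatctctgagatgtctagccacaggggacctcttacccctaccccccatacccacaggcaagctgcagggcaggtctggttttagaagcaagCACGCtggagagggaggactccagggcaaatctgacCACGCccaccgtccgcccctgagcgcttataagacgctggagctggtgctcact
In these 250 bases Car9 holds 1 match, Pgam1 3, Pfkfb3 1 in its first promoter and 3 in its second, Pfkfb4 1 and Adm 2. The second Pfkfb3 promoter holds CACGTG, which counts as a match on each strand. No match was found in the windows of Gpi1, Tpi1 and Eno2, which correlated with Car9 at r = 0.59, 0.64 and 0.69.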

How the data were processed

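Tumor RNA was sequenced by the authors from poly(A) libraries (stranded kit, 100-base paired reads), and the deposited values are raw counts per gene from HTSeq 0.9.1 after alignment with STAR 2.5.3a to GRCm38 (SAMtools 1.6), per the submitters' processing notes. The annotation release and the strand setting of the counting are not given in the sources used here. The submitters' labels put 40 mice in 8 groups; replicate numbers follow accession order and pair no mice. Total counts were 11931730 to 20680548. Each library is 1 mouse, and the labels name no separate experiments, so p-values measure the spread between these mice.

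From the counts, edgeR 4.0.16 (R 4.3.3) was run on all 40 mice in 1 model, with TMM scaling, filterByExpr (14760 of 54087 entries kept), robust quasi-likelihood fits and Benjamini-Hochberg adjustment over all genes, for 10 comparisons of 2 groups, 3 interactions, any difference among groups, and library numbers 61 to 80 against 41 to 60. DESeq2 1.42.0, other size factors, no filter, the library numbers as a covariate, each part of the libraries alone, only the compared groups, and each mouse left out were alternatives. Correlations used log2 CPM (prior count 2) minus the group mean, with 100000 permutations for Car9 and 20000 for marker sums. Copies were searched with BLAST+ 2.17.0 at 97% identity over at least 200 bases. The scripts were tested on simulated data.

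In each comparison, up to 3 higher and 3 lower members with the smallest p under 0.05 were named, and values per mouse were given for 16 members. Members and lists were chosen with earlier results of these data known, and the correlations with marker sums and the leave-one-out fits of the other pathway genes were added after the first results had been seen.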

Additional observations from a re-analysis of the deposited data

Results flagged for a closer look

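Among 128 sets of 5 mice (16 members in 8 groups), 9 held a tumor whose gap to the nearest other took up more of the group's range than Dixon's 95% limit allows, and chance flags about 1 in 20 such sets. Library 77, replicate 5 of the WT combination, stood above its group for Pfkp, at 157 CPM against 96.6 to 107 CPM, and for Aldoc, at 13.4 CPM against 4.47 to 5.47 CPM. Pfkp was also high in anti-TGF-β replicate 2 (library 48), at 105 CPM against 68.9 to 74.7 CPM, and low in anti-GARP:TGF-β1 FcD replicate 5 (library 75), at 47.3 CPM against 77.6 to 90.3 CPM. Libraries 77 and 48 also had the highest leukocyte marker sums of their groups, 3222 and 1501 CPM, whose part in these values was not tested.

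Isotype control replicate 5 (library 78) was low for Adm, at 3.60 CPM against 6.43 to 8.07 CPM, and for Ankrd37, at 29.4 CPM against 41.1 to 44.9 CPM. Adm was high in anti-PD-1 replicate 1 (library 47), at 12.8 CPM against 6.19 to 7.06 CPM. Car9 was high in anti-GARP:TGF-β1 WT replicate 3 (library 56), at 40.7 CPM against 30.4 to 32.3 CPM. Kdm3a was high in anti-TGF-β + anti-PD-1 replicate 1 (library 53), at 139.7 CPM against 99.6 to 109.5 CPM.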

How the results depend on the processing

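The 24 named fold changes were recomputed under 512 alternatives, of which 491 kept their direction and side of the threshold, 21 became called and 0 reversed. Members called against the isotype control rose from 0 to 2 (WT combination) and 1 (FcD combination) in libraries 61 to 80 alone (14.2% and 1.75% of all genes), and to 1 for the latter with only the compared groups in the model (1.3%). Leaving out 1 mouse gave 0 to 5 called members for anti-TGF-β + anti-PD-1 against the isotype control, 0 to 2 against anti-PD-1, 0 to 2 for the WT combination against anti-PD-1, 0 to 4 for any difference among the 8 groups and 0 to 1 for libraries 61 to 80 against 41 to 60. The highest counts came without library 53 (5, 2 and 4, beside 13.4%, 11.6% and 15.3% of all genes) and without library 52 (2 for the WT combination, beside 3.6%). For the library parts, the fits with 1 called member called 1.61% to 2% of all genes. DESeq2 called 2 members for any difference among the 8 groups and 1 for the library parts, beside 4.01% and 1.71%. The median interaction of anti-GARP:TGF-β1 WT with anti-PD-1 over members was 0.11, and 0.38 and -0.25 in libraries 41 to 60 and 61 to 80 alone; the cause was not tested. For anti-TGF-β against the isotype control, members with an unadjusted p under 0.05 numbered 0 to 18 with 1 mouse left out, 18 without replicate 3 (library 59; 52.9%, beside 4.8% of all genes). No paired analysis was possible because replicate numbers follow accession order and name no shared mouse or batch.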
